A study of Bos taurus with 10 samples.

Results

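The comparison described here is that of H1FOO knockdown with control bovine embryos at the morula stage. H1FOO is the linker histone of the oocyte. Zygotes had received small interfering RNA against H1FOO (KD) or a negative control small interfering RNA (NC), and whole embryos were collected as morulae 5.5 days after insemination. The members are the 6 morula libraries, 3 KD and 3 NC, of 10 libraries in the series. The other libraries, 2 per treatment, came from embryos at the 8/16-cell stage, 4 days after insemination, and are used for the spread between libraries and for levels set beside the morula values. How many embryos a library holds, their sex and the sires are not given in the sources used here, and nothing states that replicates came from separate collections, so the p-values reflect no more than the spread among these libraries. Of 28700 gene symbols that stand on 1 line of the deposited table, 11458 averaged 1 FPKM or more (FPKM counts fragments relative to transcript length and to the mapped fragments of the library) over the 6 morula libraries and were tested.

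Linker histones sit on the nucleosome, bind the DNA that enters and leaves it, and help to pack chromatin. The oocyte has a linker histone of its own, which the embryo replaces with somatic linker histones after its genome becomes active. The morula is the ball of cells in which compaction, apical polarity and cell junctions are set up. From it the blastocyst forms, with trophectoderm outside and the inner cell mass, the source of epiblast and primitive endoderm, inside. The title of the series names lineage specification and nucleosome assembly as the processes under study.

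H1FOO itself, the target, stood at 0.294, 1.05 and 2.17 FPKM in NC and at 0.0610, 0.191 and 0.251 FPKM in KD morulae, in the order of replicates 1, 2 and 3, which is kept for all values. All KD libraries lay below all NC libraries. The means were 1.17 ± 0.942 FPKM (SD, n = 3) and 0.168 ± 0.0972 FPKM, and the two-sided exact permutation p was 0.1, the smallest that 3 against 3 libraries allow. The mean over the 6 libraries, 0.669 FPKM, is under the limit of 1 FPKM, so the target was not among the genes tested. In a fit to all 20849 genes above 0 its log2 difference was -0.80 (SE 0.52, limma adjusted p 0.53). Earlier, in 8/16-cell embryos, the means had been 30.8 FPKM in NC and 0.361 FPKM in KD embryos, above the morula mean of the same treatment in both.

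The 6 libraries had 11103 to 11514 genes at 1 FPKM or more. Genes of the embryo's lineages were present in all of them: POU5F1 ran from 277 to 673 FPKM, GATA6 from 142 to 296 and TFAP2C from 82.4 to 93.2. NC replicate 1 and KD replicate 3 stood at the ends of the first principal component (42.1% of the variance), with scores of -49.1 and 50.1, and KD replicate 1 (-0.03) lay nearer to the other NC libraries than KD replicates 2 and 3 did. RN18S1, the 18S ribosomal RNA, made up 0.621%, 0.863% and 1.89% of the summed FPKM in NC and 2.27%, 2.36% and 2.72% in KD. Its log2 difference was 1.23 (SE 0.50, limma adjusted p 0.189, and 0.0369 with the replicate block), and 0.23 with quantile normalization. Its FPKM overlapped between the groups, with NC replicate 3 (8611) above KD replicate 2 (8553). The ribosomal share was higher in every KD library than in any NC library, and its part in the results below was not tested.

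More genes fell than rose in KD morulae. In limma, 87 genes (0.759%) passed at an adjusted p under 0.05, 19 of them higher (0.166%) and 68 lower (0.593%) in KD. On the log2(FPKM + 1) scale, which understates the change of genes at low levels, 17 of the rises and 55 of the falls were at least 2-fold. The median log2 difference was 1.36 among the rises (0.94 to 2.08) and -1.28 among the falls (-2.66 to -0.74), beside -0.09 over all genes tested, of which 4640 lay above and 6818 below NC. With each library shifted to an equal median, 30 genes passed higher and 57 lower, so that 65.5% of calls were falls instead of 78.2%, and with quantile normalization 45 and 65 (59.1%).

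KD and NC libraries of the same replicate number deviated together from their group means (r = 0.368, 0.330 and 0.316 across genes). Adding the replicate number to the fit as a block gave 1453 genes (12.7%), 469 higher (4.09%) and 984 lower (8.59%), and these held all 87. The values of the groups were fully separate for 2754 genes (24%), 927 of them higher (8.09%) and 1827 lower (15.9%) in KD. Single libraries decided the number of calls: limma gave 0 genes without NC replicate 1 (1701 at an unadjusted p under 0.05) or without KD replicate 2 (1774), 3 when KD replicate 3 was left out (all higher in KD), 18 when NC replicate 3 was, and 572 when KD replicate 1 was. The number also moved with the 8/16-cell libraries in the fit: the 6 morula libraries alone gave 0 (2103 at an unadjusted p under 0.05), leaving out NC 8/16-cell replicate 1 or 2 gave 0 (2244 and 2241), and leaving out KD replicate 1 or 2 of that stage 15 and 13. All 87 genes kept their sign in each alternative in which they were fitted. For most alternatives this was fixed in advance, because the KD and NC values of these genes did not overlap. Only the fits that rescaled the libraries could have turned a sign. Genes below are said to rise or fall only where they passed without the block, in the main fit, which does not use the replicate numbers.

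**Figure D1:**
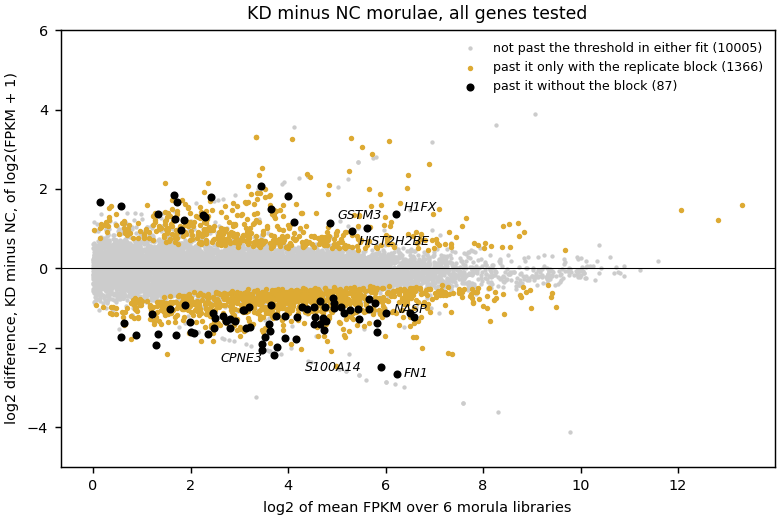
Log2 of the mean FPKM over the 6 morula libraries (x axis) against the KD minus NC difference of log2(FPKM + 1) (y axis) for the 11458 genes tested. Black points are the 87 genes that passed, yellow points the 1366 that passed only with the replicate block and grey points the other 10005. More black points lie below 0 (68) than above it (19).

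**Figure D2:**
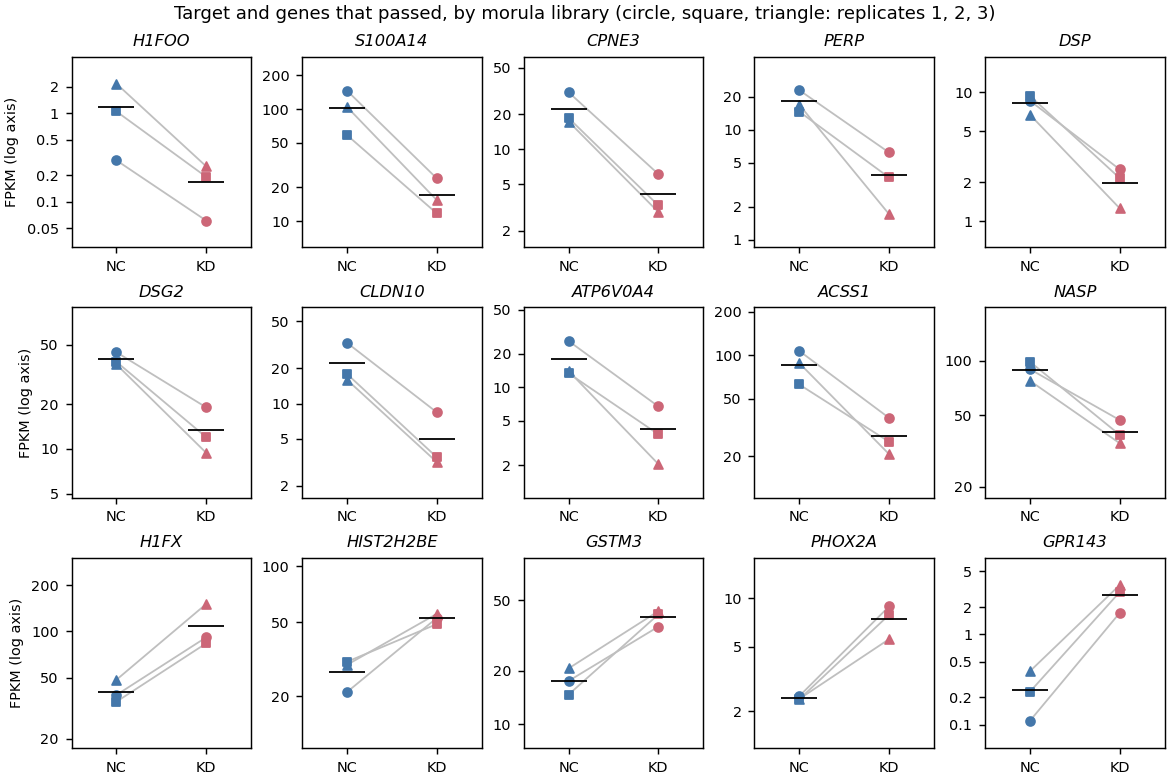
FPKM on log axes in NC (blue) and KD (red) morula libraries for H1FOO and 14 genes that passed. Grey lines join libraries of the same replicate number and black bars are group means. In each panel all KD points lie on one side of all NC points.

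H1FX and HIST2H2BE rose, and most linker and core histone transcripts lay higher in KD morulae. Beside the median log2 difference of each list stands its range, the lowest and highest median over the alternatives run, which include leaving out single libraries. The counts of each list are to be read beside those of all 11458 genes, of which 4640 lay above and 6818 below NC. Of all genes 0.166% passed higher and 0.593% lower, and 4.09% and 8.59% did with the block. Of the somatic linker histones, 6 of 6 tested genes lay above NC and 0 below (median 1.23, range 1.02 to 1.51), and of the core histones 19 of 20 tested genes lay above NC and 1 below (median 0.94, range 0.63 to 1.23). The core histone gene below NC had a log2 difference of -0.77, with no overlap between the groups. One gene of each list passed, and with the block 5 linker and 11 core histone genes did, all higher. H1FX, a somatic linker histone, stood at 38.5, 34.8 and 48.4 FPKM in NC and at 91.4, 83.6 and 151 FPKM in KD. It rose in KD, with no overlap between the groups (log2 difference 1.36, SE 0.22, limma adjusted p 0.0341). HIST2H2BE, which encodes a histone H2B, stood at 21, 30.6 and 29.5 FPKM in NC and at 52.6, 48.8 and 55.4 FPKM in KD. The rise was 0.94 on the log2 scale (SE 0.18, limma adjusted p 0.0463).

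The other linker histones were higher without passing. H1F0, the linker histone of slowly dividing and differentiating cells, stood at 20.2, 57.9 and 39.3 FPKM in NC and at 98.1, 95.5 and 161 FPKM in KD. HIST1H1C stood at 14.3, 52.6 and 38.6 FPKM in NC and at 84, 135 and 193 FPKM in KD. In both, every KD library was above every NC library, by 1.65 and 2.04 on the log2 scale (limma adjusted p 0.0526 and 0.0593, with the block 0.00703 and 0.00269). HIST1H1B (1.09) and HIST1H1D (1.05) passed only with the block and HIST1H1A (0.50) in neither fit. Without NC replicate 1 the difference of HIST1H1D was 0.51 and that of HIST1H1A 0.24. Over the alternatives run, the adjusted p of these 5 genes ran from 0.00269 to 0.669. In the earlier embryos of 8/16 cells, the means had been 27.4 (NC) and 22.4 FPKM (KD) for H1F0 and 66.6 (NC) and 69.4 FPKM (KD) for H1FX, and the list's median difference there was -0.06.

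Core histone messages covered a wide range of levels. HIST1H2BN stood at 12.8, 37.1 and 31.7 FPKM in NC and at 61.9, 67.9 and 103 FPKM in KD. Genes for H2A were the most abundant, HIST2H2AA4 at 213, 237 and 331 FPKM in NC and at 487, 493 and 767 FPKM in KD and HIST1H2AK at 177, 210.3 and 309 FPKM in NC and at 426, 389 and 695 FPKM in KD. The values of that pair run in parallel, and histone genes of one type are near-identical copies, so how reads were split between them is uncertain. None of these 3 genes overlapped between the groups, and none passed without the block (limma adjusted p 0.0592, 0.0593 and 0.0695, with the block 0.00554, 0.00392 and 0.00471). HIST1H2BI (13.7 FPKM in KD replicate 3 against 3.38 in NC replicate 3) and HIST1H2AG were higher by 1.37 and 1.62 on the log2 scale and passed only with the block, HIST1H2AG at 0.94 without NC replicate 1. Over the alternatives the adjusted p of these 5 genes ran from 0.00392 to 0.307.

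A further 18 tested loci carry only a LOC number in the table but a histone symbol in RefSeq (assembly ARS-UCD2.0), a set drawn up after the values were seen. All 18 lay above NC, with a median log2 difference of 1.09. LOC527645, which RefSeq names H4C11, stood at 1.12, 1.84 and 2.2 FPKM in NC and at 6.58, 5.94 and 14.6 FPKM in KD. LOC104975683, named H2AC7, stood at 3.55, 7.19 and 8.26 FPKM in NC and at 16.1, 18.7 and 21.6 FPKM in KD. Both rose (1.8 and 1.49 on the log2 scale, limma adjusted p 0.0353 for both), and 13 of the 18 passed with the block. Most histone messages end in a stem-loop and carry no poly(A) tail, and 18S ribosomal RNA has none either, whereas H1F0 and H1FX messages carry one. The libraries were made from RNA taken up on oligo(dT) beads, and how much the ribosomal share bears on the histone values was not tested.

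Replacement histones, which are made outside S phase, did not share this direction: 2 of 8 tested genes lay above NC and 6 below (median -0.17, range -0.31 to 0.052). H3F3A, which encodes histone H3.3, stood at 458, 311 and 395 FPKM in NC and at 241, 234 and 213 FPKM in KD. CENPA, the H3 of the centromere, stood at 53.6, 45.5 and 59 FPKM in NC and at 35.6, 36 and 29.8 FPKM in KD. Both were lower in every KD library than in any NC library, by 0.74 and 0.62 on the log2 scale, and passed only with the block (limma adjusted p 0.0689 and 0.0695 without it, 0.0137 and 0.0312 with it, 0.0137 to 0.262 over the alternatives). H2AFX, at 207, 176 and 311 FPKM in NC and at 303, 288 and 425 FPKM in KD, was higher in each pair but overlapped between the groups (log2 difference 0.57, SE 0.23, limma adjusted p 0.195, and 0.021 with the replicate block). H2AFV, at 347, 249.8 and 369 FPKM in NC and at 289.9, 253 and 301 FPKM in KD, differed by -0.18 (SE 0.18).

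Proteins that carry histones or bind nucleosomes were mostly lower in KD: 10 of 42 tested genes lay above NC and 32 below (median -0.23, range -0.30 to -0.14), and 0 passed higher and 2 lower, and 2 and 12 with the block. NASP, a chaperone that binds linker histones and keeps a pool of histones H3 and H4, stood at 89.8, 98.8 and 77.5 FPKM in NC and at 47, 38.9 and 34.9 FPKM in KD. HMGN1, which binds nucleosomes and competes there with linker histones, stood at 58.5, 47.6 and 40.9 FPKM in NC and at 25.4, 25.2 and 15.8 FPKM in KD. Both fell to less than the lowest NC library in every KD library (-1.12, SE 0.18, limma adjusted p 0.0341, and -1.13, SE 0.21, 0.0402). At the 8/16-cell stage NASP had means of 47.1 (NC) and 65 FPKM (KD), so its order between the treatments was the other way there.

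The high mobility group genes HMGB1 and HMGB2, which bend DNA, were lower without passing. HMGB1, the most abundant of them, stood at 779, 707 and 534 FPKM in NC and at 444, 317 and 257 FPKM in KD. HMGB2 stood at 141, 119 and 113 FPKM in NC and at 83.4, 71.4 and 60.9 FPKM in KD. The groups did not overlap, and both passed only with the block (log2 differences -1.0 and -0.79, limma adjusted p 0.0694 and 0.0598 without it, 0.00429 and 0.00871 with it). ANP32B and ANP32E, acidic histone chaperones, were lower by 0.67 and 1.13 on the log2 scale and also passed only with the block. Across all alternatives the adjusted p of these 4 genes ran from 0.00429 to 0.29.

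Among chromatin modifiers 18 of 56 tested genes lay above NC and 38 below (median -0.13, range -0.22 to -0.016), near the median of all genes, and CBX3 was the only member that passed. CBX3, a heterochromatin protein that binds methylated histone H3, stood at 61.2, 48.9 and 64.1 FPKM in NC and at 36.8, 26.3 and 21.9 FPKM in KD. It fell by 1.03 on the log2 scale (SE 0.20, limma adjusted p 0.0439). HDAC2, a histone deacetylase, stood at 66.8, 62.9 and 55.4 FPKM in NC and at 44.1, 31.4 and 28.1 FPKM in KD, also without overlap (log2 difference -0.84, SE 0.18, limma adjusted p 0.0592, and 0.00768 with the replicate block). HDAC1, the Polycomb genes BMI1 and RING1, and BRD2, a reader of acetylated histones, passed only with the block, BRD2 higher (0.54) and the others lower (-0.59, -0.61 and -0.78). RING1 was at -0.43 without KD replicate 3. Their adjusted p over the alternatives, HDAC2 included, ran from 0.00768 to 0.448.

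**Figure D3:**
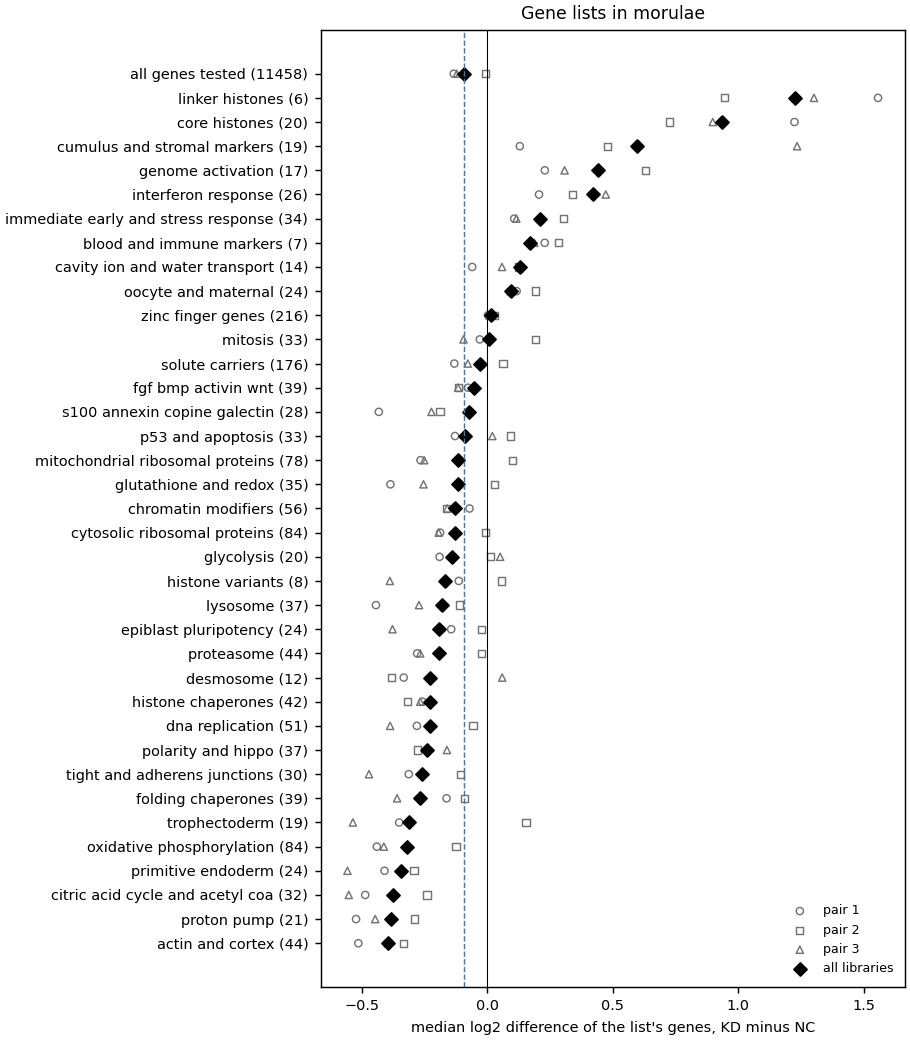
Median KD minus NC difference of log2(FPKM + 1) for each gene list with at least 6 tested genes (diamonds), with the medians of the 3 same-numbered library pairs (open symbols). Numbers of tested genes stand in brackets and the dashed line is the median of all 11458 genes, -0.09. Linker histones (1.23) and core histones (0.94) have the highest medians, and actin and cortex genes (-0.39) the lowest.

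DSP, DSG2 and PERP of the desmosome, the junction that ties epithelial cells together through keratin filaments, fell in KD morulae. DSP, desmoplakin, which links the junction to keratin, stood at 8.61, 9.38 and 6.7 FPKM in NC and at 2.53, 2.16 and 1.26 FPKM in KD. DSG2, a desmosomal cadherin, stood at 44.7, 38.5 and 37 FPKM in NC and at 19, 12 and 9.4 FPKM in KD. PERP, a membrane protein of desmosomes and a p53 and p63 target, stood at 23, 14.7 and 16.9 FPKM in NC and at 6.23, 3.69 and 1.71 FPKM in KD. No KD library reached the lowest NC library in any of them. The log2 differences were -1.64 (SE 0.23), -1.55 (SE 0.22) and -2.07 (SE 0.34), with limma adjusted p of 0.0258, 0.0263 and 0.0341. In bulk libraries such as these, fewer cells of a type and less RNA per cell cannot be told apart.

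The desmosome genes did not move as one list. Of its members 4 of 12 tested genes lay above NC and 8 below (median -0.23, range -0.95 to -0.045), and the median was -0.045 without NC replicate 1. DSC3, a desmosomal cadherin, stood at 3.04, 6.13 and 2.78 FPKM in NC and at 6.14, 9.34 and 4.91 FPKM in KD and was higher in each pair, with overlap between the groups (log2 difference 0.67, SE 0.34, limma adjusted p 0.275, and 0.0381 with the replicate block, the difference 0.45 without KD replicate 2). In 8/16-cell embryos the means of DSP had been 2.19 (NC) and 1.23 FPKM (KD) and those of DSG2 6.93 (NC) and 8.1 FPKM (KD), below the NC morula level in both treatments.

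Claudins and other junction genes were mostly lower: 7 of 30 tested genes lay above NC and 23 below (median -0.26, range -0.43 to -0.14), with 0 passed higher and 1 lower, and 0 and 7 with the block. CLDN10, a claudin that forms ion-selective pores, stood at 32.8, 17.8 and 15.9 FPKM in NC and at 8.41, 3.49 and 3.17 FPKM in KD. It fell by 1.98 on the log2 scale (SE 0.34, limma adjusted p 0.0353), without overlap. CLDN4, a barrier claudin, stood at 50.6, 16.1 and 20.8 FPKM in NC and at 10.2, 6.12 and 5.4 FPKM in KD. CTNNA1, alpha-catenin, which links cadherins to actin, stood at 81, 51.9 and 39.6 FPKM in NC and at 35.2, 24.4 and 18.3 FPKM in KD. Neither CLDN4 nor CTNNA1 overlapped between the groups, and both passed only with the block (log2 differences -1.75 and -1.1, limma adjusted p 0.0695 and 0.0879 without it, 0.00282 and 0.00458 with it, and 0.00282 to 0.316 over the alternatives). CLDN5 was higher, at 0.834, 1.06 and 0.405 FPKM in NC and at 1.97, 1.85 and 3.17 FPKM in KD, and passed in neither fit (limma adjusted p 0.0852, and 0.0592 with the block). It averaged under 1 FPKM in NC, so the filter kept it only through KD, which limits its p-values.

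No gene of apical polarity or the Hippo pathway, which reads cell position in the morula, passed without the block, where 0 of 37 did. Of them 11 of 37 tested genes lay above NC and 26 below (median -0.24, range -0.39 to -0.15), and 6 passed lower with the block. PRKCI, an atypical protein kinase C of the apical domain, stood at 22.7, 16.8 and 11.7 FPKM in NC and at 7.67, 5.46 and 2.38 FPKM in KD. PRKCZ, the other atypical kinase, stood at 11.5, 6.96 and 10.2 FPKM in NC and at 5.35, 3.9 and 3.97 FPKM in KD. WWC1, an activator of Hippo signalling, stood at 41.5, 26.3 and 20.3 FPKM in NC and at 16.9, 9.67 and 6.4 FPKM in KD. All 3 were lower in every KD library than in any NC library (-1.61, -0.95 and -1.38 on the log2 scale, limma adjusted p 0.0593, 0.0618 and 0.0618 without the block). YAP1, the coactivator that the pathway restrains, was lower by 0.70 with overlap between the groups, and CRB3, an apical protein, by 0.72. Both passed only with the block, as did the first 3, and over the alternatives the adjusted p of these 5 genes ran from 0.00271 to 0.388.

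FN1, S100A14 and CPNE3 fell most among the genes that passed. FN1, fibronectin of the extracellular matrix, stood at 222, 89.9 and 74 FPKM in NC and at 41.5, 14.9 and 8.0 FPKM in KD. Its log2 difference, -2.66 (SE 0.52, limma adjusted p 0.0480), was the lowest among the genes that passed, and no libraries overlapped. FN1 is also the 1 gene whose KD effect differed between the stages with the block (interaction -2.86, SE 0.27, limma adjusted p 0.0302, against 0.368 without the block). Earlier, in 8/16-cell embryos, it had means of 3.24 (NC) and 3.86 FPKM (KD).

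S100A14, a calcium-binding protein of epithelia, stood at 146, 58.5 and 104 FPKM in NC and at 24, 11.7 and 15.4 FPKM in KD. CPNE3, a copine that binds membrane lipids when calcium rises, stood at 30.8, 18.5 and 17.3 FPKM in NC and at 6.13, 3.3 and 2.9 FPKM in KD. Both fell without overlap (-2.49, SE 0.40, limma adjusted p 0.0341, and -2.19, SE 0.27, 0.0243). Of the S100, annexin, copine and galectin genes together, 11 of 28 tested genes lay above NC and 17 below (median -0.07, range -0.44 to 0.018), and this median turned to 0.018 with the libraries shifted to an equal median. LGALS3, galectin 3, stood at 231, 93.1 and 109 FPKM in NC and at 66.1, 43.3 and 21.4 FPKM in KD, and ANXA2, an annexin, at 379, 195 and 297 FPKM in NC and at 203, 133 and 131 FPKM in KD. Both passed only with the block (-1.73 and -0.88 on the log2 scale, limma adjusted p 0.0646 and 0.0992 without it, 0.00439 and 0.00794 with it, and 0.00439 to 0.327 over the alternatives). LGALS3 did not overlap between the groups, whereas KD replicate 1 of ANXA2 lay above NC replicate 2.

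Among genes linked to the primitive endoderm and its basement membrane, 7 of 24 tested genes lay above NC and 17 below (median -0.34, range -0.68 to -0.17), and 0 passed higher and 2 lower, and 2 and 9 with the block. Those that passed were FN1 and DAB2. DAB2, an endocytic adaptor of that lineage, stood at 24, 14.8 and 15.1 FPKM in NC and at 9.29, 5.69 and 4.02 FPKM in KD and fell (log2 difference -1.4, SE 0.27, limma adjusted p 0.0475). The matrix genes LAMB1 and COL4A1 stood at 42.6, 38.2 and 28.8 FPKM in NC and at 22.8, 19.4 and 11.7 FPKM in KD for LAMB1 and at 23.2, 13.4 and 15.9 FPKM in NC and at 10.3, 7.6 and 6.64 FPKM in KD for COL4A1. Neither overlapped between the groups, and both passed only with the block (-1.02 and -1.0 on the log2 scale, limma adjusted p 0.0696 and 0.0598 without it, 0.00612 and 0.00798 with it). NID2 and RSPO3 were lower in the same way (-1.33 and -1.71).

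Transcription factors of that lineage differed among themselves. GATA4 was higher in KD, at 1.13, 1.02 and 0.523 FPKM in NC and at 2.34, 2.42 and 2.65 FPKM in KD (log2 difference 0.89, SE 0.23, limma adjusted p 0.073, and 0.0393 with the replicate block). It averaged under 1 FPKM in NC, so the filter kept it only through KD, which limits its p-values. GATA6 stood at 296, 192 and 207 FPKM in NC and at 241, 169 and 142 FPKM in KD and SOX17 at 5.76, 2.79 and 5.06 FPKM in NC and at 4.6, 3.07 and 2.5 FPKM in KD, with overlap between the groups for both and log2 differences of -0.34 (SE 0.23) and -0.32 (SE 0.28), near the list's median. Over the alternatives the adjusted p of LAMB1, COL4A1, NID2, RSPO3 and GATA4 ran from 0.00351 to 0.324. The summed level of the whole list was 934 to 1373 FPKM in NC and 868 to 1060 FPKM in KD libraries.

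No trophectoderm gene passed without the block. CDX2, the transcription factor that sets up this outer lineage, stood at 11.7, 6.13 and 9.68 FPKM in NC and at 2.34, 1.88 and 1.23 FPKM in KD. GATA3, which acts beside it, stood at 7.99, 2.24 and 2.48 FPKM in NC and at 1.09, 0.975 and 0.583 FPKM in KD, and MSX2, a homeobox gene, at 39.96, 15.8 and 22.1 FPKM in NC and at 14.9, 4.02 and 2.86 FPKM in KD. The KD libraries of all 3 lay below the NC libraries. The log2 differences were -1.83 (SE 0.36), -1.32 (SE 0.39) and -1.9 (SE 0.47), with limma adjusted p of 0.0526, 0.0992 and 0.0695 without the block and 0.0142, 0.0315 and 0.00345 with it. Without NC replicate 1 the difference of GATA3 was -0.84. GATA3 averaged 0.883 FPKM in KD, under 1 FPKM, so the filter kept it only through NC, which limits its p-values. Over the alternatives the adjusted p of CDX2, GATA3 and MSX2 ran from 0.00345 to 0.318.

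GRHL1, an epithelial transcription factor, was lower as well (-1.23, limma adjusted p 0.0804, and 0.0237 with the block), and ID2 was higher (0.92, 0.211 and 0.0102), at 0.51 without NC replicate 1. The keratins of this epithelium overlapped between the groups. KRT8 stood at 36.8, 16.2 and 3.95 FPKM in NC and at 10.2, 6.8 and 3.77 FPKM in KD. KRT18 stood at 61.5, 44.5 and 26.9 FPKM in NC and at 34.4, 55.7 and 10.6 FPKM in KD. Neither passed in either fit, and the KRT18 difference of -0.59 turned to 0.060 without KD replicate 3. TFAP2C, at 93.2, 82.4 and 91.1 FPKM in NC and at 88, 91.9 and 86.8 FPKM in KD, differed by 0.0014 on the log2 scale (SE 0.14). Of the whole list 5 of 19 tested genes lay above NC and 14 below (median -0.31, range -0.65 to -0.086), with a median of -0.086 without KD replicate 3, and its summed level was 380 to 548 FPKM in NC and 348 to 410 FPKM in KD libraries.

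Pluripotency genes went both ways. NANOG, the epiblast transcription factor, stood at 6.48, 14.4 and 18.8 FPKM in NC and at 25.4, 39 and 37.8 FPKM in KD. KLF17, a factor high soon after genome activation, stood at 49.8, 71.4 and 79 FPKM in NC and at 84.7, 147 and 157 FPKM in KD. In both, all KD libraries were above all NC libraries (1.39, SE 0.34, and 0.92, SE 0.25). Their limma adjusted p was 0.0693 and 0.0804, and 0.00471 and 0.00439 with the block. At the 8/16-cell stage the means had been 49.7 (NC) and 43.4 FPKM (KD) for NANOG and 206 (NC) and 218 FPKM (KD) for KLF17.

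OTX2 and LIN28A were lower. OTX2, a homeobox gene of the epiblast, stood at 71.9, 42.8 and 39.6 FPKM in NC and at 35.6, 18.6 and 4.62 FPKM in KD. LIN28A, an RNA-binding protein of pluripotent cells, stood at 49.1, 44.1 and 25.1 FPKM in NC and at 23.3, 21.5 and 7.88 FPKM in KD. Neither overlapped between the groups, and both passed only with the block (log2 differences -1.67 and -1.2, limma adjusted p 0.142 and 0.133 without it, 0.0334 and 0.0216 with it). POU5F1, at 673, 449 and 555 FPKM in NC and at 531, 324 and 277 FPKM in KD, was lower in each pair with overlap between the groups (log2 difference -0.60, SE 0.29, limma adjusted p 0.258, and 0.0315 with the replicate block). SOX2, at 151, 123 and 102 FPKM in NC and at 146, 107 and 89.1 FPKM in KD, did not pass in either fit, and its difference of -0.15 turned to 0.014 without KD replicate 3. Across all alternatives the adjusted p of NANOG, KLF17, OTX2, LIN28A and POU5F1 ran from 0.00439 to 0.594. Of all 24 genes of the list, 8 lay above NC and 16 below (median -0.19, range -0.34 to -0.043). Without KD replicate 3 the difference of OTX2 was -0.92 and that of LIN28A -0.73.

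**Figure D4:**
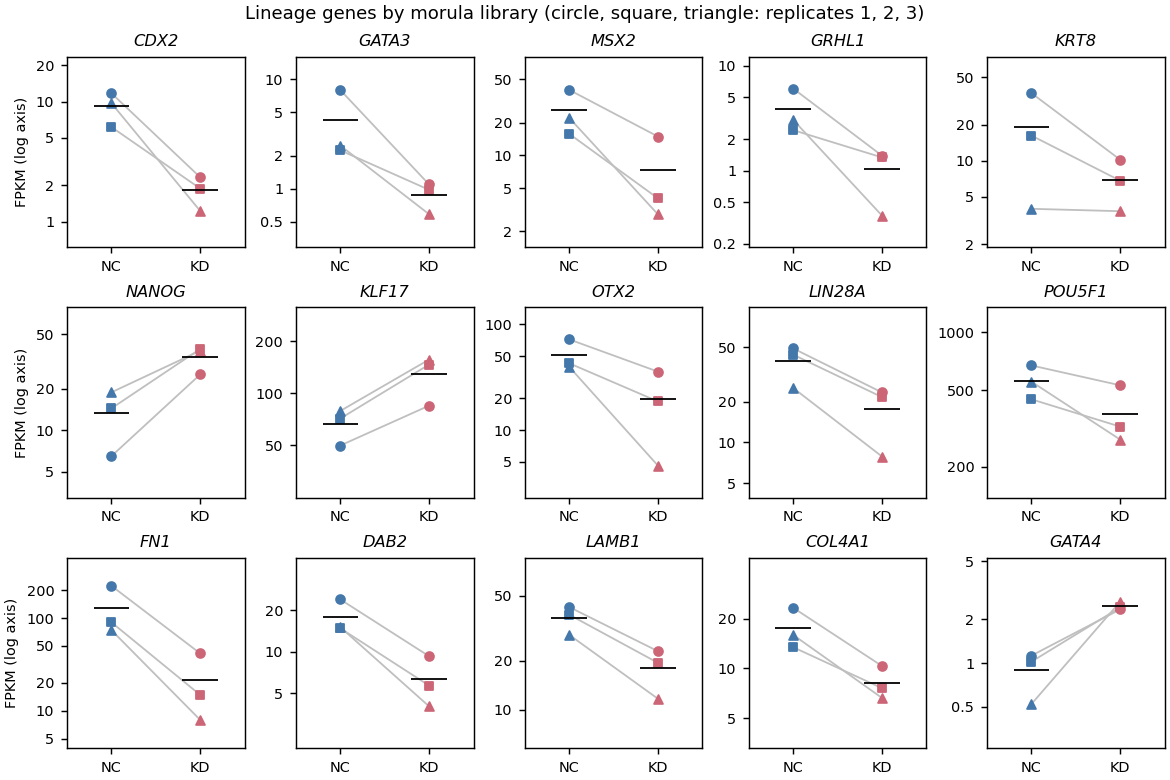
FPKM on log axes in NC (blue) and KD (red) morula libraries for genes of the trophectoderm (top row), epiblast (middle row) and primitive endoderm (bottom row). Grey lines join libraries of the same replicate number and black bars are group means. CDX2, GATA3 and MSX2 lie lower and NANOG, KLF17 and GATA4 higher in all KD libraries, while KRT8 and POU5F1 overlap.

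Genes of the actin cortex, which rounds and flattens the cells as the morula compacts, had the lowest median of the lists: 9 of 44 tested genes lay above NC and 35 below (median -0.39, range -0.45 to -0.26). Of these, 0 passed higher and 2 lower, and 2 and 17 with the block. CAPG, which caps actin filaments, stood at 48.1, 26.8 and 44.1 FPKM in NC and at 13.9, 12.6 and 18.3 FPKM in KD. ACTR3, a subunit of the complex that branches them, stood at 69.4, 64.8 and 56.7 FPKM in NC and at 41.2, 33.7 and 36.1 FPKM in KD. Both fell (-1.33, SE 0.25, limma adjusted p 0.0413, and -0.77, SE 0.15, 0.0463). TPM4, a tropomyosin, stood at 346, 179.8 and 220.2 FPKM in NC and at 108, 51.5 and 28.2 FPKM in KD, without overlap and the lowest difference of the list (log2 difference -2.12, SE 0.43, limma adjusted p 0.0528, and 0.00271 with the replicate block).

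ARPC5, a subunit of the same branching complex, passed only with the block (-0.67 on the log2 scale). TAGLN went the other way and is described with the stromal genes. TIAM1, DLG3 and RASSF8, regulators of shape and surface that passed, lie outside the list. TIAM1, an activator of Rac, fell to a mean of 2.46 ± 1.19 FPKM (SD, n = 3) from 8.66 ± 2.23 FPKM. DLG3, a scaffold of cell contacts, fell by 1.19 and RASSF8, linked to adherens junctions, by 1.25 on the log2 scale (limma adjusted p 0.0403 and 0.0402). Over the alternatives the adjusted p of TPM4 and ARPC5 ran from 0.00271 to 0.218.

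The proton pump, which acidifies lysosomes and moves acid across epithelia, gave calls in both directions. ATP6V0A4, the membrane subunit typical of acid-secreting epithelia, stood at 26.2, 13.4 and 14.1 FPKM in NC and at 6.76, 3.8 and 2.05 FPKM in KD. ATP6V1A, the catalytic subunit, stood at 42.7, 37.8 and 39.1 FPKM in NC and at 22.2, 22.4 and 18.8 FPKM in KD. Both fell (-1.9, SE 0.35, limma adjusted p 0.0423, and -0.89, SE 0.16, 0.0402). ATP6V0E2, a small membrane subunit, rose from 1.44 ± 0.270 to 4.93 ± 1.75 FPKM (SD, n = 3; log2 difference 1.24, SE 0.24, limma adjusted p 0.048). ATP6V1B1, another subunit of acid-secreting epithelia, stood at 4.24, 1.6 and 2.42 FPKM in NC and at 0.494, 0.429 and 0.110 FPKM in KD without overlap (log2 difference -1.43, SE 0.28, limma adjusted p 0.0515, and 0.0142 with the replicate block, 0.0142 to 0.198 over the alternatives). It averaged under 1 FPKM in KD, so the filter kept it only through NC, which limits its p-values. Of the whole pump list, 3 of 21 tested genes lay above NC and 18 below (median -0.38, range -0.52 to -0.27).

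In the lysosome list 10 of 37 tested genes lay above NC and 27 below (median -0.18, range -0.26 to -0.046), and the 2 genes that passed fell. LMBRD1, which lets vitamin B12 leave the lysosome, stood at 28.3, 11.9 and 14.9 FPKM in NC and at 6.74, 4.04 and 3.18 FPKM in KD. LAMP2, a main protein of the lysosomal membrane, stood at 76.2, 66 and 71.7 FPKM in NC and at 45.6, 38.1 and 32.6 FPKM in KD. The log2 differences were -1.73 (SE 0.33, limma adjusted p 0.0436) and -0.87 (SE 0.17, 0.0463), and neither overlapped. RAB11FIP1, of recycling endosomes, fell by 1.28, VPS26A, of the retromer, by 1.27, SNX7, a sorting nexin, by 0.98 and MVB12A, of the complex that sorts cargo into endosomes, by 1.04 on the log2 scale (limma adjusted p 0.0341 to 0.0451). AP1M1, a subunit of a clathrin adaptor named after its values were seen, rose from 1.61, 1.72 and 1.88 FPKM to 3.67, 5.39 and 7.50 FPKM.

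Ion and water transport genes, which serve the filling of the blastocyst cavity, did not pass without the block and had no set direction. Here 8 of 14 tested genes lay above NC and 6 below (median 0.13, range -0.092 to 0.25), and the median turned to -0.092 without KD replicate 3. AQP11, an aquaporin of intracellular membranes, stood at 17.3, 31.6 and 20.2 FPKM in NC and at 28.5, 90.5 and 76.1 FPKM in KD. It was higher in each pair, overlapped between the groups and passed only with the block (log2 difference 1.35, SE 0.37, limma adjusted p 0.0837, and 0.00658 with the replicate block, 0.00658 to 0.306 over the alternatives).

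ACSS1, SUCLG2, DLAT and ACAT1, mitochondrial enzymes around acetyl-CoA and the citric acid cycle, fell. ACSS1, which makes acetyl-CoA from acetate in mitochondria, stood at 107, 62.8 and 88.3 FPKM in NC and at 36.8, 25.2 and 20.7 FPKM in KD. SUCLG2, a subunit of succinyl-CoA ligase, stood at 23.3, 17.9 and 15.8 FPKM in NC and at 8.92, 4.39 and 4.37 FPKM in KD. DLAT, a core subunit of pyruvate dehydrogenase, stood at 7.45, 5.77 and 5.21 FPKM in NC and at 2.34, 1.78 and 1.32 FPKM in KD, and ACAT1, an acetyl-CoA acetyltransferase, at 40.04, 45.3 and 39 FPKM in NC and at 18.9, 19.8 and 22.2 FPKM in KD. In none did a KD library reach the NC range. The log2 differences were -1.61, -1.58, -1.35 and -1.0 (SE 0.25, 0.26, 0.21 and 0.14, limma adjusted p 0.0341, 0.0341, 0.0341 and 0.0243).

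Of this list 7 of 32 tested genes lay above NC and 25 below (median -0.38, range -0.53 to -0.28), and 0 passed higher and 4 lower, and 1 and 12 with the block. MPC1, of the mitochondrial pyruvate carrier, stood at 61, 29.9 and 29.6 FPKM in NC and at 20.8, 11.8 and 10.4 FPKM in KD, and IDH1, the cytosolic isocitrate dehydrogenase, at 211, 167 and 117 FPKM in NC and at 95.9, 77.1 and 56.3 FPKM in KD. Neither overlapped, and both passed only with the block (-1.4 and -1.09 on the log2 scale, limma adjusted p 0.0592 and 0.0598 without it, 0.00268 and 0.00271 with it, and 0.00268 to 0.236 over the alternatives). Other enzymes that fell were ALDH6A1, of valine breakdown, CRYZ, a quinone reductase, and NIT2, which clears a glutamine by-product, by 1.4, 1.4 and 1.5 on the log2 scale. MFN1, which fuses mitochondria, and GRSF1, which binds mitochondrial RNA, fell by 1.24 and 0.97 (limma adjusted p of these 5 genes 0.0239 to 0.0379).

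The nuclear genes of oxidative phosphorylation lay low as a group with no single call. Of them 10 of 84 tested genes lay above NC and 74 below (median -0.32, range -0.57 to -0.16), 0 passed in limma without the block and 15 passed lower with it. SDHD, a membrane anchor of complex II, stood at 72.2, 47 and 73.6 FPKM in NC and at 39.5, 30.4 and 29.2 FPKM in KD without overlap (log2 difference -0.92, SE 0.20, limma adjusted p 0.0592, and 0.0093 with the replicate block). The list's median was negative in each alternative. Glycolysis genes were mixed (8 above and 12 below NC, median -0.14, range -0.33 to 0.10). TPI1, triose phosphate isomerase, was higher, at 3.39, 2.56 and 2.2 FPKM in NC and at 8.15, 6.62 and 21.1 FPKM in KD (log2 difference 1.65, SE 0.35, limma adjusted p 0.0592, and 0.0144 with the replicate block), and HK2, a hexokinase, lower, at 95.8, 99.3 and 72.7 FPKM in NC and at 67, 61.2 and 52.5 FPKM in KD (with the block 0.0231).

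GSTM3, a glutathione transferase, stood at 17.6, 14.7 and 20.7 FPKM in NC and at 35.5, 41.7 and 43.5 FPKM in KD. It rose (log2 difference 1.15, SE 0.17, limma adjusted p 0.0264) and was the only gene of the glutathione and redox list that passed, where 13 of 35 tested genes lay above NC and 22 below (median -0.12, range -0.31 to -0.027). GPX1, a glutathione peroxidase, stood at 89.6, 28.2 and 54.3 FPKM in NC and at 30.3, 11.9 and 12.5 FPKM in KD, and TXN, thioredoxin, at 105, 50.4 and 105 FPKM in NC and at 41.3, 31.1 and 31.6 FPKM in KD. Both were lower and passed only with the block (-1.58 and -1.24, limma adjusted p 0.0769 and 0.0689 without it, 0.00452 and 0.00917 with it, and 0.00452 to 0.289 over the alternatives). GPX1 overlapped between the groups, since KD replicate 1 (30.3 FPKM) lay above NC replicate 2 (28.2 FPKM). Before, at 8/16 cells, GSTM3 had means of 118 (NC) and 134 FPKM (KD).

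No ribosomal protein gene passed without the block. Among cytosolic ribosomal proteins 16 of 84 tested genes lay above NC and 68 below (median -0.13, range -0.36 to 0.059), a median that turned to 0.059 without KD replicate 2, and among mitochondrial ones 21 of 78 tested genes lay above NC and 57 below (median -0.11, range -0.34 to 0.022), which turned to 0.022 with quantile normalization. TARS and DARS, which load threonine and aspartate onto transfer RNA, fell by 0.97 and 0.83 on the log2 scale (limma adjusted p 0.0402 for both). Of the proteasome 9 of 44 tested genes lay above NC and 35 below (median -0.19, range -0.30 to -0.06). With the block only, 5 genes passed lower, a share near the 8.59% of all genes. Of the folding chaperones 9 of 39 tested genes lay above NC and 30 below (median -0.27, range -0.31 to -0.12). DNAJC3, a chaperone of the endoplasmic reticulum, stood at 38.2, 37.2 and 39.4 FPKM in NC and at 22.3, 22 and 23.5 FPKM in KD and fell by 0.74 (SE 0.13, limma adjusted p 0.0353). HSPD1, the mitochondrial chaperonin, stood at 135, 149.5 and 124 FPKM in NC and at 89.9, 41.8 and 36.2 FPKM in KD and did not overlap (log2 difference -1.38, SE 0.28, limma adjusted p 0.0535, and 0.00798 with the replicate block).

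DNA replication genes lay lower (39 of 51, median -0.23, range -0.36 to -0.12), with 0 passing without the block and 11 lower with it, among them RRM1 and MCM6 (-0.64 and -0.62). Mitosis genes split evenly (18 above and 15 below, median 0.01, range -0.063 to 0.14), with BUB1B and TTK, of the spindle checkpoint, lower with the block only. Outside these lists, FANCI, of crosslink repair, BCCIP, a BRCA2 partner, and TERF1, which binds telomeres, fell by 0.98, 1.02 and 1.02 on the log2 scale. TERF1 stood at 27.1, 31.8 and 26.1 FPKM in NC and at 13.8, 13 and 13.5 FPKM in KD (limma adjusted p 0.0243). CETN3, a centrin of centrosomes, fell by 1.2. Of p53 and apoptosis genes 14 of 33 tested genes lay above NC and 19 below (median -0.09, range -0.16 to 0.051), near the median of all genes. None passed without the block. With it 1 passed higher and 3 lower, beside 4.09% and 8.59% of all genes. Without overlap, 0 lay higher and 6 lower, beside 8.09% and 15.9% of all genes. BAX, CASP6 and CYCS were lower in KD, with log2 differences of -0.77, -0.76 and -0.66. CDKN1A, the p53 target that halts the cycle, stood at 1.25, 4.44 and 7.14 FPKM in NC and at 5.2, 11.9 and 19.5 FPKM in KD with overlap between the groups (log2 difference 1.35, SE 0.50, limma adjusted p 0.159, and 0.00751 with the replicate block, the difference 0.83 without NC replicate 1).

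Some genes had their extremes in a single NC and a single KD library. ISG15, an interferon-induced modifier, stood at 0, 10.1 and 1.16 FPKM in NC and at 12.8, 31.4 and 45.8 FPKM in KD, and IFI6, another interferon target, at 0.194, 29 and 18.8 FPKM in NC and at 23.9, 59.1 and 184 FPKM in KD. VIM, vimentin of mesenchymal cells, stood at 0.346, 5.4 and 5.42 FPKM in NC and at 3.44, 11 and 43.3 FPKM in KD, and IGFBP5, a binder of insulin-like growth factors, at 0.0133, 22.5 and 15.1 FPKM in NC and at 22.7, 61.1 and 153 FPKM in KD. NC replicate 1 was near 0 and KD replicate 3 highest in each of them. Without NC replicate 1 the differences of IFI6, VIM and IGFBP5 were 1.42, 1.05 and 1.65, against 2.87, 1.8 and 3.07 with all libraries. None passed without the block (limma adjusted p 0.0598, 0.152, 0.206 and 0.122) and all did with it (0.00452, 0.0102, 0.00814 and 0.00575). TAGLN, of smooth muscle and stromal cells, and CYP11A1, which starts steroid synthesis, shared these ends (2.54 and 1.46 on the log2 scale), CYP11A1 at 0.81 without NC replicate 1. Across all alternatives the adjusted p of these 6 genes ran from 0.00452 to 0.57. KD means had also been above NC means at the 8/16-cell stage for ISG15, IGFBP5 and TAGLN, where no gene passed. They were 28.5 (NC) and 72.2 FPKM (KD) for ISG15 and 60.5 (NC) and 113 FPKM (KD) for IGFBP5. Those of TAGLN were 22.8 (NC) and 39.3 FPKM (KD).

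The lists these genes belong to moved unevenly between pairs. Of the interferon response 18 of 26 tested genes lay above NC and 8 below (median 0.42, range 0.24 to 0.65, and 0.26 at 8/16 cells). With the block 8 passed higher and 0 lower, beside 4.09% and 8.59% of all genes. Without overlap, 4 lay higher and 3 lower, beside 8.09% and 15.9% of all genes. The lower ones were HERC5 (-0.81), IFI35 (-0.91) and PARP12. The summed level of the list in morulae was 99.3 to 174 FPKM in NC and 153 to 466 FPKM in KD libraries. The next list joins markers of cumulus cells, which surround the oocyte, with markers of stromal cells. Of these markers 16 of 19 tested genes lay above NC and 3 below (median 0.60, range 0.29 to 0.87), with pair medians of 0.13, 0.48 and 1.24. The median of the same markers at 8/16 cells was 0.65. Their summed level in morulae was 440 to 745 FPKM in NC and 396 to 688 FPKM in KD. IGFBP2 was the largest part of this sum in each NC library, so the sum hides the other markers. It stood at 539, 237 and 315 FPKM in NC and at 267, 122 and 151 FPKM in KD (-1.01, limma adjusted p 0.15). In KD replicate 3, TIMP1 (177 FPKM) and IGFBP5 (153 FPKM) lay above it. FSHR, the receptor that defines granulosa cells, was at 0 in all 6 libraries. The part of other cells or of these 2 libraries in the calls was not tested beyond the fits that leave out a library.

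**Figure D5:**
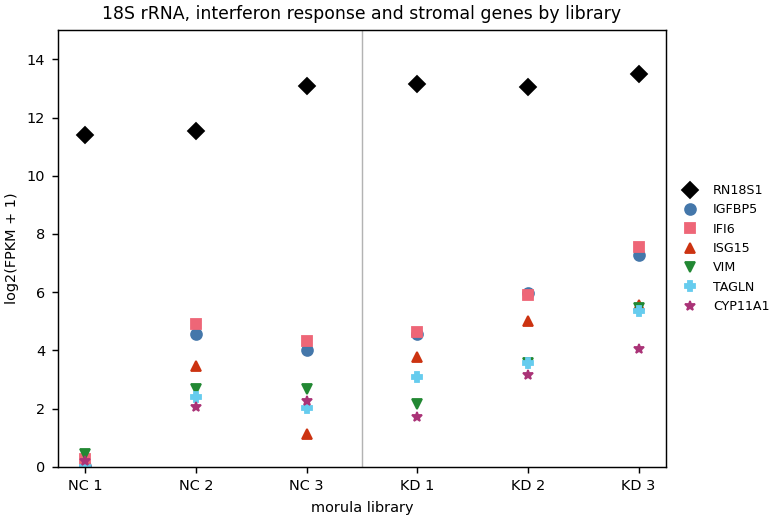
Log2(FPKM + 1) of 18S ribosomal RNA (RN18S1), 2 interferon response genes and 4 stromal or steroid genes in each morula library. The interferon and stromal genes are near 0 in NC replicate 1 and highest in KD replicate 3, and RN18S1 is lowest in NC replicates 1 and 2.

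Immediate early and stress response genes were mostly higher, with no call without the block: 23 of 34 tested genes lay above NC and 11 below (median 0.21, range 0.068 to 0.31), and 6 passed higher and 2 lower with the block. SGK1, a kinase induced by glucocorticoids and stress, stood at 77.9, 75.3 and 82.7 FPKM in NC and at 116, 133 and 145 FPKM in KD. PER1, a clock gene induced the same way, stood at 4.29, 5.67 and 4.34 FPKM in NC and at 7.92, 11 and 10.4 FPKM in KD, and MYC at 2.81, 7.22 and 5.8 FPKM in NC and at 9.51, 21.1 and 15.2 FPKM in KD. All were higher in every KD library, by 0.73, 0.90 and 1.38 on the log2 scale (limma adjusted p 0.0535, 0.0528 and 0.0598, with the block 0.00913, 0.0102 and 0.00271). DDIT4, a stress-induced inhibitor of mTOR signalling, was lower (-0.87, 0.0648 and 0.00968). Over the alternatives the adjusted p of these 4 genes ran from 0.00271 to 0.26.

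Genes switched on with the embryonic genome were higher for 10 of 17 members (median 0.44, range 0.22 to 0.59), 7 of which passed with the block and 0 without. ZSCAN5B, a zinc finger gene, stood at 0.836, 4.81 and 3.68 FPKM in NC and at 11.5, 17.7 and 15.3 FPKM in KD. ARGFX, a homeobox gene of this window, stood at 61.9, 74.5 and 63.1 FPKM in NC and at 78.6, 125 and 162 FPKM in KD, and POLR2A, the large subunit of RNA polymerase II, at 66.7, 74 and 84.7 FPKM in NC and at 113, 144 and 154 FPKM in KD. The KD libraries were above the NC libraries in all 3 (2.09, 0.81 and 0.85, limma adjusted p 0.056, 0.0951 and 0.1, and 0.00439 to 0.326 over the alternatives). In 8/16-cell embryos the means of ARGFX had been 194 (NC) and 190.5 FPKM (KD). Transcripts of the oocyte had 15 of 24 members above NC (median 0.10, range 0.047 to 0.29), and 0 passed without the block. With it 3 passed higher and 0 lower, beside 4.09% and 8.59% of all genes. Without overlap, 6 lay higher and 2 lower, beside 8.09% and 15.9% of all genes. YBX2 (0.60) and KHDC3L (0.71) were among the higher ones, and SOHLH2 (-0.88) and TLE6 (-0.52) were the lower ones. The summed level of the list was 193 to 227 FPKM in NC and 210 to 215 FPKM in KD. DPPA3 was the largest part of this sum in each library.

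Further genes that fell from a mean level of 5 FPKM or more belong to no list. SEMA4C, a semaphorin, stood at 28, 31.1 and 24.5 FPKM in NC and at 10.1, 10.1 and 3.82 FPKM in KD, and LAP3, a leucine aminopeptidase, at 93.7, 75.9 and 74.3 FPKM in NC and at 41.9, 34 and 19.8 FPKM in KD. MRFAP1L1 stood at 125, 126 and 151 FPKM in NC and at 52.5, 52.6 and 65.7 FPKM in KD, SPTSSA, a small subunit of the enzyme that starts sphingolipid synthesis, at 114, 140.5 and 116 FPKM in NC and at 43.9, 68.8 and 56.4 FPKM in KD, and ADSS, of AMP synthesis, at 35, 33.7 and 31.4 FPKM in NC and at 17, 12.6 and 11.9 FPKM in KD. None of them overlapped (log2 differences -1.77, -1.38, -1.22, -1.13 and -1.23, limma adjusted p 0.0243 to 0.0353). The remaining falls of this kind were C6H4orf19 (-1.74), SUSD2 (-1.51), PROS1, the anticoagulant protein S (-1.49), AAED1 (-1.33), ZDHHC20, a palmitoyltransferase (-1.32), GBP4, a guanylate-binding protein (-1.22), KCTD15 (-1.21), SNAP25, a SNARE of vesicle fusion (-1.14), RASSF2 (-1.06), C28H1orf131 (-1.06), PBDC1 (-0.98) and TMEM230 (-0.93).

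Among genes under a mean of 5 FPKM, named here after their values were seen, falls included PECAM1, an adhesion molecule, at 4.63, 2.18 and 1.75 FPKM in NC and at 0.252, 0.0767 and 0 FPKM in KD, and MME, the peptidase neprilysin, at 6.21, 5.02 and 4.83 FPKM in NC and at 2.14, 0.972 and 0.267 FPKM in KD. ALDH1A1, which makes retinoic acid, stood at 4.97, 4.75 and 3.26 FPKM in NC and at 0.486, 0.940 and 0.658 FPKM in KD. All 3 fell (-1.73, -1.67 and -1.64), as did MAB21L3 (-1.62), C16H1orf115 (-1.68), SRPX2 (-1.37), KCTD3 (-1.16) and UNC13B (-0.94), each on the log2 scale. Rises at this level were PHOX2A, a homeobox gene known from neurons, at 2.48, 2.37 and 2.38 FPKM in NC and at 8.89, 7.89 and 5.58 FPKM in KD, and GPR143, a receptor known from pigment cells, at 0.110, 0.232 and 0.391 FPKM in NC and at 1.73, 2.95 and 3.53 FPKM in KD. PHOX2A did not overlap (log2 difference 1.29, SE 0.20, limma adjusted p 0.0341). GPR143 did not either, and it was above 1 FPKM on average in KD only, so the filter kept it through the group where it was high. SEMA3F, a secreted semaphorin, rose by 0.97. Of the 87 genes, 13 carry only a LOC number, 11 of them among the rises, and LOC104970061 was listed at 0 in all 3 NC libraries and at 2.44, 2.55 and 1.65 FPKM in KD. In all, 4 rises and 5 falls, LOC104970061, GPR143, PECAM1, ALDH1A1, C16H1orf115, SRPX2 and SLC1A3 among them, averaged under 1 FPKM in the lower group, so that they too were tested only through the higher one, and their p-values carry that limit.

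Of the 40 genes with the largest differences among those that passed with the block, did not overlap and averaged 5 FPKM or more, several have not been described. PPP1R14A, an inhibitor of myosin phosphatase, stood at 368, 147 and 278 FPKM in NC and at 112, 52.2 and 27.9 FPKM in KD, and GCSH, of the glycine cleavage system, at 207, 136 and 166 FPKM in NC and at 67.9, 48.1 and 21 FPKM in KD. LITAF, of late endosomes, stood at 47.9, 20.7 and 24.8 FPKM in NC and at 13.5, 5.49 and 3.23 FPKM in KD, and FBLN2, a matrix fibulin, at 69.5, 24.2 and 37 FPKM in NC and at 20.3, 8.99 and 5.94 FPKM in KD. All 4 were lower by 1.84 to 2.15 on the log2 scale (limma adjusted p 0.0539 to 0.068 without the block). PACSIN2, CSRP2, IQGAP2, GLRX, APOBR, BRB and RSPH1 were lower by 1.57 to 1.88. PCDH8, a protocadherin, stood at 1.25, 4.51 and 4.79 FPKM in NC and at 7.95, 17.4 and 20.6 FPKM in KD, and UCHL1, a ubiquitin hydrolase, at 1.49, 3.57 and 5.48 FPKM in NC and at 6.03, 17 and 35.6 FPKM in KD. These were higher by 1.88 and 1.99, and PLAGL1 and BSP1 by 1.64 and 1.66. Across all alternatives the adjusted p of these 15 genes ran from 0.00206 to 0.383.

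At the 8/16-cell stage the same contrast gave no gene in limma (0%, with 464 at an unadjusted p under 0.05), with 2 libraries per group. The 2 contrasts share no library. The 19 genes that rose in morulae had a median log2 difference of 0.18 there, 14 above and 4 below 0, and the 68 that fell a median of -0.06, 24 above and 44 below. The difference between the stages was tested as an interaction, and no gene passed (0%, with 1079 at an unadjusted p under 0.05). For the 87 genes its adjusted p ran from 0.368 to 0.822. Genes with low 8/16-cell means in both treatments included ATP6V0A4 (1.22 (NC) and 0.254 FPKM (KD)) and SUSD2 (0.486 (NC) and 0.486 FPKM (KD)), and SNAP25 had been higher there than in morulae (32 (NC) and 16.8 FPKM (KD)).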

How the data were processed

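Gene expression was measured by RNA sequencing of poly(A)-selected RNA from whole embryos in 10 libraries. A Picopure kit was used for RNA isolation, oligo(dT) beads for selection and an NEBNext Ultra kit with PCR for the libraries, per the labels' protocols. Whether strand was kept is not given in the sources used here, so reads of overlapping or antisense genes cannot be told apart. The submitters' processing notes name ARS-UCD1.2 and bosTau9 as builds and, as tools, Cufflinks, featureCounts, HISAT2 and Trimmomatic. Versions and the step each served are not given. The deposited values are FPKM made by the authors, in a table of 39911 lines. All 10 columns were matched to samples. Counts per library and hence counting error are unknown. The most common ratios among values under 1 FPKM put the morula libraries at 0.811 to 1.63 times the depth of NC replicate 1, and summed FPKM ran from 345464 to 456442.

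The 81 symbols on more than 1 line (11211 lines) were left out. Just outside the limit of 1 FPKM were TEX46 (0.998) and ATG4A (0.999), just inside MAP3K13 and LOC527796 (1.00 each). Limma 3.58.1 (R 4.3.3) fitted 4 group means to log2(FPKM + 1) of all 10 libraries with limma-trend, with two-sided tests and Benjamini-Hochberg adjustment over the 11458 genes (threshold 0.05). The script was tested on simulated data. Same-numbered KD and NC libraries correlated in their deviations (r = 0.368, 0.330 and 0.316, other combinations -0.248 to -0.0799). The labels give shared numbers only, and by the limit of 0.1 they were taken to pair the libraries. The main fit had been set without the block, with earlier results known, so its calls do not use this pairing. Fits with the block are given beside it. The 38 gene lists, the members and the tests were chosen with earlier results of these data known. Named were H1FOO, genes that passed and averaged 5 FPKM or more, the 20 largest rises and falls with the block among non-overlapping genes, up to 6 genes per list by smallest p, and the usual lineage genes. Some genes that this rule names are not reported here. Lists were described by counts and medians. Alternatives covered pseudocount, filter, scaling, the block, the trend and each library left out. Figures were drawn with matplotlib. Promoter sequences were not used here.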

Additional observations from a re-analysis of the deposited data

How the results depend on the processing

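All 87 genes kept their sign in the 22 alternatives, of which the one with a higher filter fitted 65 of them. As their KD and NC values did not overlap, only the fits that rescaled the libraries could have turned a sign. Calls depended on the spread. With a pseudocount of 0.1, 61 genes passed (16 higher, 45 lower). With every gene above 0, 17 passed (3 and 14), and 1672 genes were higher and 2136 lower in KD without overlap. With the filter raised to 5 FPKM, 143 passed (36 and 107), and 555 higher and 1317 lower did not overlap. The 6 morula libraries alone gave 0, 0 and 0. The replicate block gave 1453 (469 higher, 984 lower) and 1 gene for the interaction, and with the morula libraries alone 1262 (395 and 867). Shifting medians gave 30 higher, quantile normalization 45, and leaving out the trend 77 in all.

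Leaving out 1 library gave 0 to 572 genes (0 to 215 higher, 0 to 357 lower) and 0 to 2 for the interaction. With the block, leaving out replicate 1, 2 or 3 gave 0 (limma, 2463 at an unadjusted p under 0.05), 426 and 42 (0, 141 and 23 higher, 0, 285 and 19 lower), and up to 4 for the interaction. Leaving out an 8/16-cell library, added after the data were seen, gave 0, 0, 15 and 13. The cause was not tested. Small differences turned sign: TFAP2C to -0.052 (without NC replicate 2), -0.022 (without KD replicate 2) and -0.075 (block, without replicate 2), H2AFZ to 0.052 (without NC replicate 3), KRT18 to 0.060 and SOX2 to 0.014 (without KD replicate 3). With 1 library left out, the ranges were -0.052 to 0.036 for TFAP2C, -0.40 to 0.052 for H2AFZ, -1.08 to 0.060 for KRT18 and -0.34 to 0.014 for SOX2. The number of fragments behind each value is unknown, so counting error limits the genes near 1 FPKM by an unknown amount. The promoter search named in the design was not run.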

Other observations

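Zinc finger genes, a large family of DNA-binding proteins, split evenly in KD morulae: 114 of 216 tested genes lay above NC and 102 below (median 0.02, range -0.019 to 0.11). None passed without the block, and 10 passed higher and 9 lower with it, beside 4.09% and 8.59% of all genes. ZNF326 stood at 14, 20.8 and 13.5 FPKM in NC and at 7.69, 8.18 and 6.06 FPKM in KD, and ZNF280A at 10.4, 10.5 and 9.69 FPKM in NC and at 20.01, 19.4 and 26.6 FPKM in KD. Neither overlapped between the groups, and they lay on opposite sides (-1.02 and 1.03, limma adjusted p 0.0528 and 0.0535, with the block 0.0062 and 0.021, and 0.0062 to 0.222 over the alternatives).

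Solute carriers also split (82 above and 94 below NC, median -0.03, range -0.094 to 0.061). SLC1A3, a transporter of glutamate and aspartate, stood at 6.93, 4.48 and 2.17 FPKM in NC and at 0.889, 0.279 and 0.0272 FPKM in KD and was the only one that passed (log2 difference -1.93, SE 0.34, limma adjusted p 0.0379). In the earlier embryos of 8/16 cells, its means were 0.0787 (NC) and 0.0438 FPKM (KD). SLC1A1, a carrier of the same family, stood at 98.5, 73.7 and 71.4 FPKM in NC and at 57.2, 40.8 and 29.3 FPKM in KD, without overlap (log2 difference -0.96, SE 0.24, limma adjusted p 0.0689, and 0.00666 with the replicate block, 0.00666 to 0.26 over the alternatives).

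Among FGF, BMP, activin and Wnt genes, 18 lay above and 21 below NC, and none passed without the block. SPRY4, a feedback inhibitor of FGF signalling, stood at 2.69, 7.28 and 3.98 FPKM in NC and at 8.45, 13 and 9.87 FPKM in KD, and FGFR3, an FGF receptor, at 27.3, 17.6 and 18.2 FPKM in NC and at 16.1, 10.3 and 7.21 FPKM in KD. Both passed only with the block (1.08 and -0.89, limma adjusted p 0.0718 and 0.0984 without it, 0.00924 and 0.0126 with it, and 0.00924 to 0.33 over the alternatives). Of the sperm markers 4 of 17 were tested (3 above NC) and of the blood and immune markers 7 of 25 (all above, median 0.17, range 0.11 to 0.42). Their summed levels were 9.60 to 14.1 FPKM in NC and 9.97 to 17.9 FPKM in KD for sperm, and 331 to 778 and 420 to 717 FPKM for blood, with HBB, PPBP and PF4 at 0 in all 6 libraries. Most of the blood sum came from HBG (108 to 534 FPKM), HBA (106 to 239), CSF1R (30.7 to 46.1) and HBA1 (18.9 to 51.5), all present in each library.

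The widest differences of all belonged to loci listed above 0 in few libraries, named here after their values were seen. LOC112446103 was listed at 5289 FPKM in NC replicate 1 and at 0 in the other 5 libraries (log2 difference -4.12, limma adjusted p 0.369), and MIR124A-1, a microRNA gene, at 1892 FPKM in NC replicate 3 only.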
